A study of Rattus norvegicus with 12 samples.

Results

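The miR-17-92 cluster is a group of miRNA hairpins that are cut from 1 primary transcript and so can be expected to be made together. Its members were taken by name from the assays of a rodent TaqMan qPCR card, and the 7 assays miR-17, rno-miR-17-3p, miR-18a, miR-19a, miR-19b, miR-20a and miR-92a were found among 375 miRNA assays. All 7 gave a determined Ct in all 12 samples and belonged to the 222 assays that were tested. The Ct is the PCR cycle at which an assay crosses its threshold. It is a log2 scale that falls as abundance rises, so that 1 cycle less stands for about 1 doubling.

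The samples came from the medial entorhinal cortex (MEC) of Long Evans rats. The study asked which miRNAs differ between stellate cells and the other cells of the MEC. Stellate cells are principal neurons of layer II whose axons reach the dentate gyrus. Pups received the fluorescent tracer DiO in the dentate gyrus of both hemispheres at P2, and the MEC was dissociated at P4 or P5. Sorting by fluorescence gave 5 samples of DiO positive cells (stellate) and 5 of DiO negative cells (non-stellate), and 2 further samples were MEC tissue dissected at P23 and kept in RNAlater. No genetic modification was described for any group. The pups were injected under isoflurane and received the analgesic rimadyl, which both sorted groups share, and no such surgery was described for the P23 rats. Labelling depends on uptake of the dye by axons in the dentate gyrus, so the non-stellate samples can hold stellate cells that took up no dye as well as interneurons, glia and vascular cells. Non-stellate samples 3 and 5 were described as labelled in 1 field of their records. Their titles, sources and fluorescence placed them in the non-stellate group, where they were kept, and the results are given with and without them. In such bulk samples, fewer cells of a type and less RNA per cell cannot be told apart.

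The miR-17-92 cluster is known for promoting proliferation and survival, and in the developing cortex it is expressed in neural progenitors and declines as neurons mature. Its members fall into seed families. The seed, bases 2 to 8 of the mature miRNA, is the stretch that pairs with target mRNAs, so members with the same seed have largely shared targets. The miR-17 and miR-18 families are known to act on cell cycle inhibitors and on TGF-beta signalling, and miR-92a on the pro-apoptotic Bim and on integrins.

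In the rat assembly GRCr8, the 6 hairpins of the cluster lie on the plus strand of chromosome 15 within 785 bp, at chr15:98587848-98588632. RefSeq annotates each hairpin as a miRNA gene of its own. Their order is Mir17, Mir18a, Mir19a, Mir20a, Mir19b1 and Mir92a1, with 35 to 90 bp between neighbours. The mature sequences of all 7 members were found in RefSeq (GRCr8) and are shown with their seeds in capitals, because the members are described by seed family. The miR-17 and miR-18 families have these sequences.

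miR-17 (5p arm of Mir17): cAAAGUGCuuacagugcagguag

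miR-20a (5p arm of Mir20a): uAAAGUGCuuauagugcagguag

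miR-18a (5p arm of Mir18a): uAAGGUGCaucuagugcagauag

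The miR-19 family, miR-92a and the opposite arm of Mir17 have other seeds.

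miR-19a (3p arm of Mir19a): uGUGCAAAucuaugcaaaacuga

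miR-19b (3p arm of Mir19b1): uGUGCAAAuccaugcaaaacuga

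miR-92a (3p arm of Mir92a1): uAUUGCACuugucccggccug

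rno-miR-17-3p (3p arm of Mir17): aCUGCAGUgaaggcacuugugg

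miR-17 and miR-20a share a seed and 21 of 23 bases. miR-19a and miR-19b share a seed and 22 of 23 bases, differing at 1 position outside the seed. miR-18a is identical to miR-17 at 17 of 23 bases and to miR-20a at 19, and has a seed of its own. The mature sequences of miR-17, miR-19b and miR-92a are also made from hairpins on the X chromosome, so these assays cannot be assigned to the chromosome 15 cluster alone. The sequences of miR-18a, miR-19a, miR-20a and the 3p arm shown here were listed from chromosome 15 only. An assay may also read a close relative, and the deposited values cannot separate such signal.

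The sorted samples held little RNA. Their median Ct of the 176 assays with a determined Ct in all 10 sorted samples was between 28.0 and 30.9, against 23.7 in both tissue samples, and between 203 and 260 miRNA assays were determined in each, against 292 and 302. Each miRNA had 1 well per sample. Repeated wells exist for U6, a small nuclear RNA used as reference, whose 4 wells per sample had a pooled SD of 0.366 cycles. Their mean Ct per sample was between 15.6 and 20.2, and every member came later than U6. The SD of U6 therefore does not give the precision of the member wells. The members were read on 3 scales. The first is Ct relative to the mean of the U6 wells, as deposited. The second is Ct relative to the median of the 176 assays (median-centred). The third is Ct relative to the mean Ct of the 7 members in the same sample (within-cluster), which leaves the balance between members. Log2 differences were taken so that a positive value means more RNA in the group named first.

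miR-17 was among the earliest signals on the card in sorted cells. Its Ct was 23.39, 22.61, 23.35, 22.69 and 21.90 in stellate samples 1 to 5, 23.25, 22.77, 23.45, 22.84 and 23.43 in non-stellate samples 1 to 5, and 21.62 and 21.31 in tissue. The sorted groups overlapped, and both tissue samples were only slightly earlier than the earliest sorted sample, while the median Ct of the card moved by more than 4 cycles. Among the 375 miRNA assays, miR-17 ranked between 3 and 11 by Ct in every sorted sample and 41 and 43 in tissue. A rank is one of assay signal, since assays amplify with different efficiency.

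miR-20a, the other member of the miR-17 family, had Ct values of 25.20, 24.40, 26.24, 24.87 and 23.39 in the stellate samples, 24.87, 24.61, 25.82, 24.68 and 25.96 in the non-stellate samples, and 22.05 and 21.95 in tissue. miR-18a came much later, at 32.41, 30.65, 32.74, 31.34 and 29.98 in stellate, 30.97, 30.47, 32.05, 31.35 and 33.03 in non-stellate and 28.76 and 28.96 in tissue samples. In both, the sorted groups overlapped and tissue was earlier than every sorted sample.

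On the Ct scale, where the whole card was earlier in tissue, the miR-19 family showed the largest displacement of the members. miR-19b had Ct values of 25.35, 24.92, 26.21, 25.17 and 23.96 in stellate, 25.31, 25.21, 26.40, 25.39 and 26.96 in non-stellate, and 19.64 and 19.68 in tissue samples. miR-19a had Ct values of 31.62, 30.64, 32.97, 31.55 and 30.09 in stellate, 31.11, 31.11, 32.74, 31.33 and 33.72 in non-stellate, and 25.41 and 25.38 in tissue samples. The gap between the nearest sorted sample and tissue was thus over 4 cycles in both, and the sorted groups overlapped. miR-19b stayed at a similar rank, 18 to 44 in sorted samples and 19 and 20 in tissue, and so did miR-19a, at 138 to 181 and 135 and 139.

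miR-92a behaved like miR-17. Its Ct was 24.78, 23.56, 24.56, 23.38 and 22.76 in stellate, 24.82, 23.87, 24.36, 23.53 and 25.36 in non-stellate, and 22.82 and 22.95 in tissue samples. The tissue values lay inside the range of the stellate samples. Its rank was between 8 and 34 in sorted samples and 68 and 69 in tissue. The passenger arm rno-miR-17-3p was late and variable, at 31.03, 32.30, 35.11, 33.08 and 30.09 in stellate, 33.47, 33.30, 33.87, 33.73 and 34.97 in non-stellate, and 30.21 and 29.29 in tissue samples. Its stellate values spread over 5 cycles and enclosed those of all other samples but tissue 2.

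**Figure D1:**
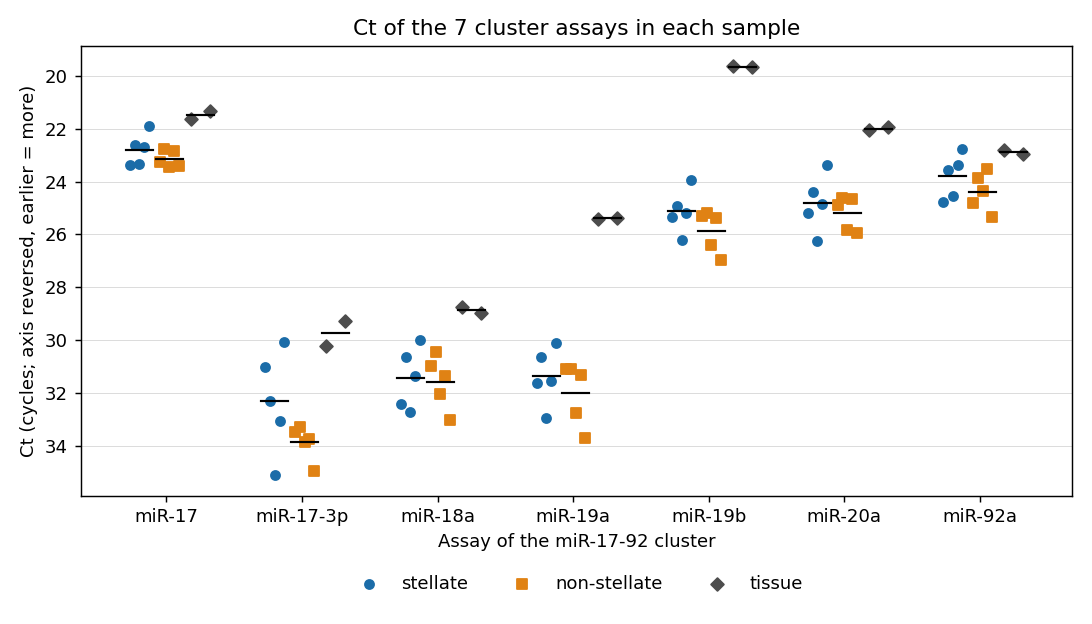
Ct in cycles (reversed axis, earlier means more RNA) of the 7 assays in 5 stellate, 5 non-stellate and 2 tissue samples. Points are samples and bars are group means. Stellate and non-stellate points overlap for every assay, and the tissue points of miR-19a and miR-19b stand far above the sorted ones while those of miR-92a lie within the stellate range.

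The first comparison was of stellate with non-stellate cells. No member passed the limma test on any of the 3 scales, on each of which 0% of the 222 assays were called higher and 0% lower (adjusted p from 0.710 to 0.980 for the members after U6 scaling, 0.343 to 0.796 after median centring and 0.333 to 0.989 within the cluster). At an unadjusted p under 0.05, 16 of 222 assays and 0 members passed after U6 scaling, 28 assays and 2 members after median centring, and 38 assays and 0 members within the cluster.

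The members other than rno-miR-17-3p were placed low among the assays. After U6 scaling, the median log2 difference, stellate minus non-stellate, was -0.24 over the members and 0.46 over all tested assays, and 6 of the 7 members lay below the latter. The U6-scaled difference was -0.67 ± 0.61 for miR-18a (SE, here and below), -0.46 ± 0.62 for miR-17, -0.45 ± 0.57 for miR-20a, -0.24 ± 0.63 for miR-92a, -0.19 ± 0.57 for miR-19a and -0.08 ± 0.52 for miR-19b. Each was lower than non-stellate in 3 of the 5 pairs of equal replicate number and higher in 2, so the U6-scaled values had no common direction. The passenger arm rno-miR-17-3p differed by 0.73 ± 0.56 and was higher in 4 pairs.

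After median centring the errors were smaller, except for rno-miR-17-3p, and the values lower, while the median of all assays was 0.07. The median-centred difference was -1.06 ± 0.40 for miR-18a, -0.85 ± 0.41 for miR-17, -0.84 ± 0.34 for miR-20a, -0.63 ± 0.44 for miR-92a, -0.58 ± 0.31 for miR-19a and -0.48 ± 0.26 for miR-19b. miR-17, miR-20a and miR-92a were lower in stellate cells in 5 of 5 pairs, and miR-18a, miR-19a and miR-19b in 4 of 5. Such counts of pairs were not made over all tested assays. miR-18a and miR-20a were the members with an unadjusted p under 0.05 (0.0245 and 0.0315 by limma), and both had an adjusted p of 0.343. With the replicate number as a block, 4 members had an unadjusted p under 0.05 (miR-20a 0.00663, miR-17 0.00821, miR-92a 0.0154 and miR-18a 0.0263 by limma). None passed after adjustment (lowest adjusted p = 0.110). All tested assays with such an unadjusted p were not counted in the blocked fit. Whether 4 members is more than the share of the card is therefore not known. The same 6 members, being made together, are not 6 independent observations. Without pairs 3 and 5, which hold the samples with conflicting labels, no member passed on any scale.

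The assay of the passenger arm differed most from its neighbours. The Ct of rno-miR-17-3p was 9.53 ± 1.67 cycles above that of miR-17 in stellate cells (SD, n = 5, range 7.64 to 11.8) and 10.7 ± 0.521 in non-stellate cells (SD, n = 5, range 10.2 to 11.5), and 8.59 and 7.98 in tissue. The stellate values thus enclosed the non-stellate ones and both tissue values. Both arms are cut from the same hairpin, but the miR-17 assay also reads the copy from the X chromosome. Within the cluster rno-miR-17-3p differed by 0.92 ± 0.54 between stellate and non-stellate cells and was not called (limma adjusted p = 0.333).

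**Figure D2:**
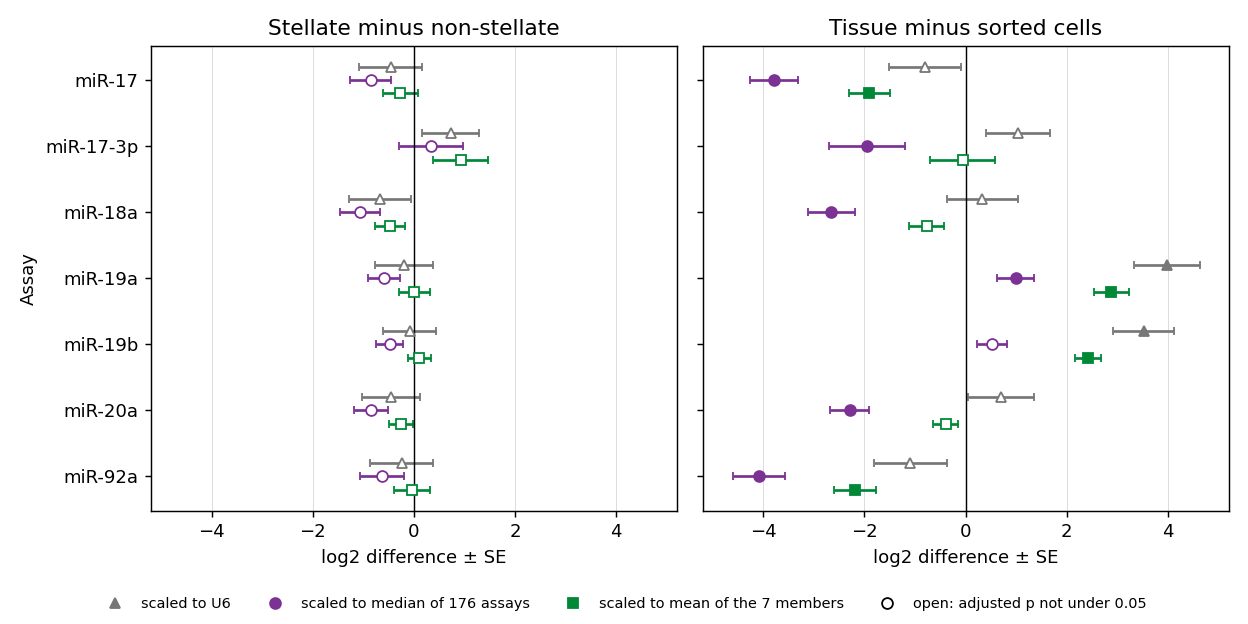
Log2 difference with its SE for each member, stellate minus non-stellate (left) and tissue minus sorted cells (right), after scaling to U6, to the median of 176 assays or to the mean of the 7 members. Filled symbols have a limma adjusted p under 0.05, and on the left no symbol is filled, while on the right miR-19a is filled on all 3 scales and miR-19b on 2.

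Markers of several cell types were read in the same samples, since the sorted groups could differ in their makeup. The mean median-centred level of 4 vascular miRNAs (miR-126-3p, miR-126-5p, miR-143 and miR-145) ran from -1.34 to 1.19 in stellate and from -2.84 to -0.97 in non-stellate samples, and was 1.92 and 2.06 in tissue. That of 5 neuronal miRNAs (miR-124, miR-128a, miR-138, miR-129-3p and miR-9) ran from 3.03 to 3.70 in stellate and from 2.37 to 3.12 in non-stellate samples, and was 4.23 and 4.46 in tissue. Singly, 4 of them had a positive median-centred difference, stellate minus non-stellate, and miR-9 had -0.80. No tested marker passed the limma test between the sorted groups, where 0% of the 222 assays were called, so the test does not show equal makeup. Of 6 blood and microglial miRNAs 4 were tested, with mean levels of -1.70 to 0.50 in stellate, -1.61 to -0.80 in non-stellate and 0.32 and 0.35 in tissue samples. That mean joins opposite differences, stellate minus non-stellate: -1.17 (miR-142-3p), -0.17 (miR-223), 0.66 (miR-146a) and 1.98 (miR-150). All 4 vascular differences were positive, the largest being 2.29 (miR-143). The study reported miR-143 and miR-150 as up-regulated in its labelled cells. Staining of P23 sections in that study showed miR-143 in stellate and other neurons and in some vessels. Neither miRNA can therefore be taken to mark vascular or blood cells alone. The untested miR-142-5p and miR-451 were undetermined in all 10 sorted samples and had mean Ct values of 30.3 and 26.8 in tissue. The oligodendrocyte miRNAs miR-219 and miR-338-3p were undetermined in 8 and 7 of the 10 sorted samples, so neither was tested. Their mean Ct values in tissue were 25.4 and 28.8. The part of the cellular makeup in the values of the cluster was not tested.

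The second comparison was of P23 tissue with the sorted P4/P5 cells. A change of scale adds the same amount to every member, and it turned the direction of 3 of the 7 (rno-miR-17-3p, miR-18a and miR-20a) without changing their order. After U6 scaling, 2 members were called higher, miR-19a by 3.98 ± 0.66 (limma adjusted p = 0.000256) and miR-19b by 3.52 ± 0.60 (adjusted p = 0.000303). No member was called lower. Scaled to the reference RNA Y1 alone, miR-19a and miR-19b kept their direction, at 0.48 and 0.01, and were not called (adjusted p = 0.604 and 0.980), while 4 other members were called lower. The share of all assays called with Y1 alone was not counted. After U6 scaling 62.2% of the 222 assays were called higher in tissue and 1.35% lower, and their median was 3.02, so that the miR-19 values lay close to that of the tested assays. The other 5 members, with U6-scaled differences from -1.10 ± 0.72 (miR-92a) to 1.04 ± 0.64 (rno-miR-17-3p), lay below that median and were not called.

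Relative to the median of the card, most of the cluster was lower in tissue. After median centring, 5 members were called lower, while 25.2% of all assays were called lower and 23.9% higher, and the median of all assays was 0.03. miR-92a fell by 4.09 ± 0.51 and miR-17 fell by 3.79 ± 0.47 on the log2 scale (both limma adjusted p = 8.93e-05), about 17.0-fold and 13.9-fold. miR-18a fell by 2.66 ± 0.46 (adjusted p = 0.000754), miR-20a fell by 2.29 ± 0.39 (adjusted p = 0.000629) and rno-miR-17-3p fell by 1.95 ± 0.75 (adjusted p = 0.0493). Values of 6 of the 7 members did not overlap between tissue and sorted samples, as for 53.2% of all assays, and those of rno-miR-17-3p did. miR-19a rose by 0.99 ± 0.36 (adjusted p = 0.0414), and miR-19b, at 0.53 ± 0.30, was not called (adjusted p = 0.164).

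The median-centred calls of miR-17, miR-18a, miR-20a and miR-92a held when any 1 of the 12 samples was left out, without non-stellate samples 3 and 5, and with the replicate number as a random block. They also held against each sorted group alone, at log2 differences of -3.37, -2.13, -1.87 and -3.77 in that order against stellate cells and -4.22, -3.19, -2.71 and -4.40 against non-stellate cells. The calls of rno-miR-17-3p and miR-19a were weak. That of rno-miR-17-3p was lost without any 1 of 9 samples (stellate 1 or 2, any non-stellate or either tissue sample, limma adjusted p from 0.0556 to 0.317), and that of miR-19a without any 1 of 8 (stellate 3 or 4, non-stellate 1, 3, 4 or 5, or either tissue sample, adjusted p from 0.0505 to 0.182). With the block their adjusted p was 0.0665 and 0.0581, and without non-stellate samples 3 and 5 it was 0.0851 and 0.0737. miR-19b was called higher without stellate sample 5 (adjusted p = 0.0456). The tissue group had 2 samples, whose members' Ct values differed by 0.03 to 0.917 cycles.

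The members therefore did not keep their balance. Within the cluster, miR-19a was 2.89 ± 0.35 higher in tissue (limma adjusted p = 5.27e-05) and miR-19b 2.42 ± 0.26 higher (adjusted p = 2.06e-05), while miR-17 fell by 1.90 ± 0.40 (adjusted p = 0.00184) and miR-92a fell by 2.19 ± 0.41 (adjusted p = 0.000989). These 2 higher and 2 lower members stand beside 51.4% of all assays called higher and 7.66% called lower on this scale. miR-18a (-0.76 ± 0.35, adjusted p = 0.0745), miR-20a (-0.40 ± 0.25, adjusted p = 0.187) and rno-miR-17-3p (-0.06 ± 0.64, adjusted p = 0.951) were not called, although miR-18a was without stellate sample 1 (adjusted p = 0.0269). Since the reference is the mean of the members themselves, a rise of the miR-19 family on this scale pushes the other members down.

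Differences between member assays within a sample need no reference. The Ct of miR-19a was 8.72 ± 0.785 cycles above that of miR-17 in sorted samples (SD, n = 10, range 7.86 to 10.3) and 3.80 and 4.07 in tissue. miR-19b was 2.52 ± 0.485 cycles above miR-17 in sorted samples (SD, n = 10, range 1.96 to 3.53) and below it in tissue, at -1.98 and -1.64. The order of these assays was therefore turned in both tissue samples relative to all 10 sorted samples.

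The closeness of a pair did not follow the seeds. miR-19b minus miR-19a was -6.20 ± 0.371 cycles in sorted samples (SD, n = 10) and -5.77 and -5.71 in tissue, inside the sorted range of -6.76 to -5.72 but for the last value, which lay just above its upper end. miR-20a minus miR-17 was 2.04 ± 0.443 in sorted samples (SD, n = 10, range 1.48 to 2.89) and 0.431 and 0.632 in tissue, so this pair, which shares a seed, moved by 1.51 cycles. miR-92a minus miR-17 was 1.13 ± 0.402 in sorted samples (SD, n = 10) and 1.21 and 1.64 in tissue, within the sorted range although the seeds differ. Both tissue values lay outside the sorted range in 14 of the 21 pairs of members, with the largest displacement, 5.08 cycles, between miR-92a and miR-19a. The 21 pairs reuse the same 7 assays. Pairs of other assays were not counted, so whether 14 is many for this card is not known. Of single assays, 53.2% did not overlap between tissue and sorted samples after median centring.

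**Figure D3:**
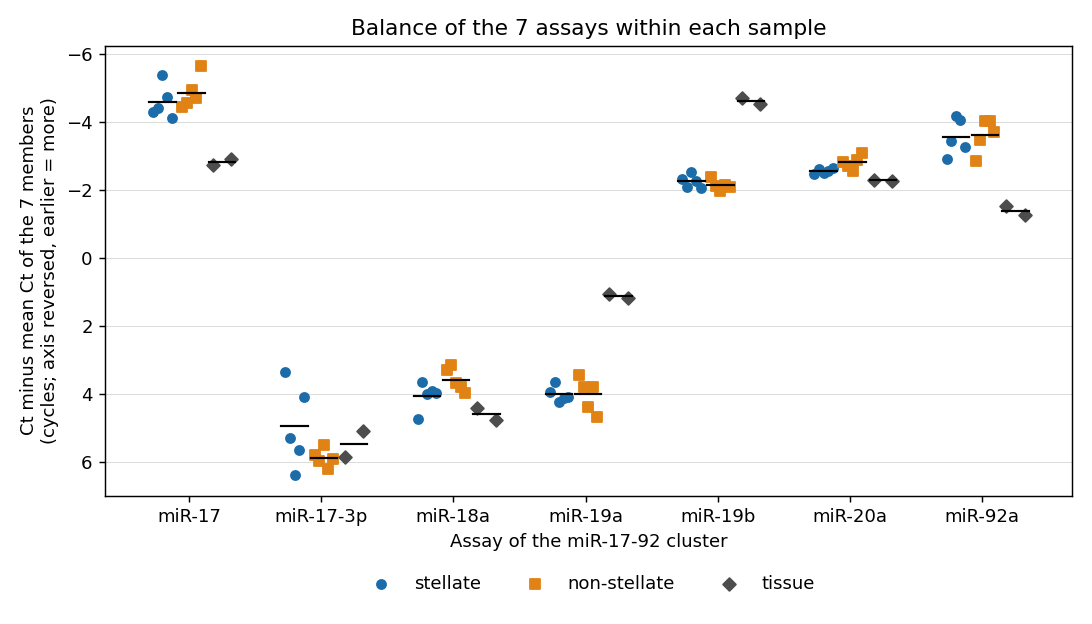
Ct of each member minus the mean Ct of the 7 members in the same sample, in cycles (reversed axis), for 5 stellate, 5 non-stellate and 2 tissue samples, with bars at the group means. In tissue miR-19a and miR-19b sit above all sorted samples and miR-17, miR-92a and, more narrowly, miR-20a below all of them. These 5 of the 7 members do not overlap between tissue and sorted samples on this scale, nor do 62.2% of all assays.

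Among the sorted samples the members differed in how closely they followed each other. The SD over the 10 sorted samples of a member's Ct minus the mean Ct of the other members was 0.196 cycles for miR-19b, 0.227 for miR-20a, 0.426 for miR-19a, 0.508 for miR-18a, 0.560 for miR-17, 0.563 for miR-92a and 1.12 for rno-miR-17-3p. For 169 other assays determined in all 10 sorted samples, the median SD of the difference from the mean Ct of the members was 0.810. None of these 169 assays was closer to the members' mean than miR-19b or miR-20a was to the other members, whereas 19 were closer than miR-19a, 30 than miR-18a, 38 than miR-17, 39 than miR-92a and 132 than rno-miR-17-3p. The 5 assays with the smallest SD were miR-101a (0.313), let-7b (0.314), miR-106b (0.319), miR-25 (0.333) and miR-93 (0.357). miR-106b, miR-93 and miR-25 form a paralogue cluster with seeds of the miR-17 and miR-92 families. Samples that differ in RNA input move all assays together, so the SD describes likeness in these samples only, and in tissue the Ct of miR-101a minus that of the cluster changed by -3.84 cycles against sorted cells.

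Of 8 paralogues of the cluster, made from the miR-106a-363 and miR-106b-25 clusters and from miR-92b, 7 were on the card and 6 were tested, as miR-18b was undetermined in all 12 samples. None was called between stellate and non-stellate cells, with 5 lower and 1 higher after median centring. Against sorted cells 5 of the 6, miR-106a among them, were called lower in tissue after median centring and none higher. Of all assays, 25.2% were called lower and 23.9% higher on that scale. The differences ran from -3.77 to -1.57 over the 6. After U6 scaling none of them was called, where 62.2% of all assays were called higher and 1.35% lower. The miR-106a assay followed that of miR-17 in every sample, with Ct differences from -0.148 to 0.305 cycles. In GRCr8 the hairpin Mir106a on the X chromosome gives the same mature sequence as miR-17, and the values of the miR-17 and miR-106a assays are therefore not separate evidence.

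Base composition moved with the tissue difference. The relation was looked at after the values had been seen, for the 182 of 222 tested assays (82.0%) with a RefSeq mature sequence. Where the card named no arm and both arms were listed, the share of G and C bases was averaged over both. For such an assay the share may not be that of the sequence it reads. Each member was given the share of 1 arm, so members and other assays were not treated alike. The line on GC used below rests on the same values. Across these assays the share of G and C bases and the median-centred difference, tissue minus sorted, had a Pearson r of -0.464 and a Spearman rho of -0.445. The assays share their samples and are not independent replicates. The median difference was 1.42 for 29 assays under 40% GC, 0.45 for 86 assays between 40% and 50% and -1.24 for 67 assays over 50%.

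The member with the least GC was miR-19a, followed by miR-19b and miR-20a with equal shares. The GC content was 34.8% in miR-19a, 39.1% in miR-19b and in miR-20a, 43.5% in miR-18a, 47.8% in miR-17, 54.5% in rno-miR-17-3p and 57.1% in miR-92a. miR-19b and miR-20a have the same GC content and the same length, and the difference between their Ct values changed by 2.82 cycles between sorted cells and tissue. A line of Ct on GC was then removed in each sample. After median centring, miR-17, miR-18a, miR-20a and miR-92a were called lower in tissue, at -3.74, -3.11, -3.24 and -2.95 in that order. The share of the 182 assays called with the line removed was not counted, here or within the cluster. The part of base composition in these differences was not tested. The values of miR-19a and miR-19b turned to -0.46 ± 0.40 and -0.42 ± 0.32 and were not called (limma adjusted p = 0.361 and 0.307).

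With the GC line removed, the members called within the cluster changed in part. On that scale miR-19a was higher in tissue by 1.69 ± 0.38 and miR-19b by 1.73 ± 0.27 (limma adjusted p = 0.00274 and 0.000206), and miR-17 fell by 1.59 ± 0.39 (adjusted p = 0.00411). miR-20a and miR-18a, not called before, also fell, by 1.09 ± 0.24 and 0.96 ± 0.35 (adjusted p = 0.00208 and 0.0286), whereas miR-92a, at -0.81 ± 0.40, was no longer called (adjusted p = 0.0938). The RNA of the sorted cells was extracted with the RNAqueous Micro kit and that of the tissue with another kit, given as mirVana in the sample records and as a Norgen kit for whole MEC tissue in the study's methods. The groups also differed in age, in dissociation and sorting, and in the amount of RNA. These cannot be told apart in the difference between tissue and sorted cells.

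**Figure D4:**
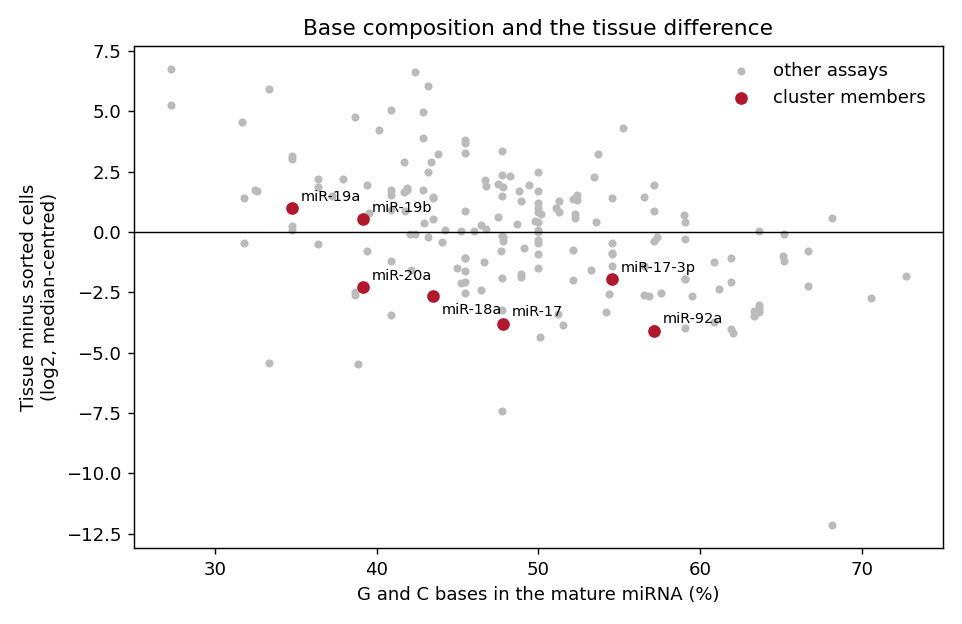
Tissue minus sorted cells (log2, median-centred) against the percentage of G and C bases in the mature miRNA, for 182 assays, with the 7 members in red. For other assays named without an arm, the percentage was averaged over both arms where both were listed. Values fall with GC content, and miR-19b and miR-20a, at the same 39.1%, are on opposite sides of 0.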

How the data were processed

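Total RNA of 12 samples was measured on TaqMan rodent card A after reverse transcription and preamplification. The authors set Ct values with the instrument's default threshold. The raw table they deposited holds Ct, a log2 scale with 40 in undetermined wells, and the normalized log2 table they deposited equals Ct minus the mean of 4 U6 wells. The deposited tables of fold changes and limma statistics hold the authors' own comparisons and were not used. No read depth exists for such cards, and the number of determined assays was used in its place.

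Assays undetermined in at most 3 of 10 sorted samples (222 of 375) were fitted by lmFit and eBayes of limma 3.58.1 (R 4.3.3), and two-sided p-values were adjusted by Benjamini-Hochberg over the 222 assays, with a threshold of 0.05. Stellate and non-stellate samples were compared in 10 samples without a block, as the study's methods state none, and the tissue group was set against the average of the sorted groups in a fit of all 12 samples. On the within-cluster scale the Ct of each assay was taken relative to the mean Ct of the 7 members. Figures were drawn with matplotlib 3.10.9 and correlations computed with SciPy 1.17.1 in Python 3.11.15. The fits were also run on simulated data with noise independent between assays, which hold no shifts shared within a sample. No result given here rests on that run.

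The labels give labelled and unlabelled cells of 5 biological replicates, so equal numbers were taken to pair the samples. Across assays, the deviations of paired samples from their group means had correlations of 0.331, 0.119, 0.256, 0.155 and 0.0743 for pairs 1 to 5, against -0.0481 for unequal numbers. The members, the paralogue list (8 miRNAs), the marker lists (vascular 4, blood and microglia 6, oligodendrocyte 2, neuron 5) and the rule for named miRNAs were chosen with earlier results of these data known. That rule takes the 7 members, up to 3 paralogues and the 5 assays that followed the members' mean Ct most closely. Alternatives changed the scaling, the assay filter, the value given to undetermined wells, the block, the reference within the cluster and the samples left out. The GC correction, the median-centred refits and the mean without rno-miR-17-3p were chosen after seeing the data.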

Additional observations from a re-analysis of the deposited data

Results flagged for a closer look

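For miR-18a, non-stellate sample 3 stood apart from the other non-stellate samples after U6 scaling, at a Ct of 14.1 above U6, where the lowest and the next highest were 12.7 and 12.9. Its distance to the next sample was 0.888 of the group's range, above the limit of 0.710 for 5 samples. It was the only one among 28 sets of 5 values looked at, and chance alone marks about 5% of such sets. It is also 1 of the 2 samples with conflicting labels.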

How the results depend on the processing

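Between stellate and non-stellate cells, the count of members called stayed at 0 under all 29 alternatives on the U6 scale, all 23 within the cluster and all 17 after median centring, the fits with the replicate block (0 members on each scale) included. Between tissue and sorted cells, 2 members were called under 23 of 26 alternatives on the U6 scale, and 6 after median centring, 6 with the global mean (2 higher, 4 lower) and 4 with Y1 alone (0 higher, 4 lower). The share of all assays called was not counted with the global mean or with Y1 alone. Within the cluster the count of members was 4 or 5 under all 23 alternatives, and after median centring 4 to 7 under all 17. With the block as a random term the counts were 2, 4 and, after median centring, 4, where the calls of rno-miR-17-3p and miR-19a were lost.

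Of 945 member values under an alternative, 58 had the opposite sign to the value reported, and in none of these were both called. For tissue minus sorted cells on the U6 scale, rno-miR-17-3p, miR-18a and miR-20a turned to -1.95, -2.66 and -2.29 after median centring, to -1.64, -2.35 and -1.98 with the global mean and to -2.47, -3.17 and -2.81 with Y1 alone, and miR-18a was -0.0035 against non-stellate cells alone. Within the cluster, with the median of the members as reference, rno-miR-17-3p, miR-18a and miR-20a were 0.74, 0.036 and 0.40, and rno-miR-17-3p was 0.40 against non-stellate cells alone and 1.03 with the GC line removed. With that line removed, miR-19a and miR-19b were -0.46 and -0.42 after median centring. For stellate minus non-stellate cells on the U6 scale, snoRNA202 alone gave 0.12 (miR-18a), 0.60 (miR-19a), 0.70 (miR-19b), 0.34 (miR-20a), 0.33 (miR-17) and 0.55 (miR-92a), Y1 alone gave 0.12 (miR-19a), 0.23 (miR-19b) and 0.071 (miR-92a), and snoRNA135 alone gave 0.017 (miR-19b). Within the cluster miR-19a was -0.10 with the median of the members, and -0.23 without pairs 3 and 5, where miR-92a was 0.020. The causes were not tested.

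When samples or pairs were left out, the U6-scaled difference of stellate from non-stellate cells ran from -0.52 to 0.21 for miR-19a, from -0.43 to 0.22 for miR-19b and from -0.52 to 0.22 for miR-92a. Within the cluster it ran from -0.16 to 0.15 for miR-19a, from -0.47 to 0.046 for miR-17 and from -0.23 to 0.12 for miR-92a, and after median centring from -0.12 to 0.92 for rno-miR-17-3p. Within the cluster, tissue minus sorted ran from -0.45 to 0.33 for rno-miR-17-3p. A fit without 1 tissue sample takes the other to vary like the sorted samples. Single wells, 2 tissue samples and late Ct values (miR-18a, miR-19a and rno-miR-17-3p) limit the precision.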
